A study of Mus musculus with 16 samples.

Results

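The cholesterol synthesis genes examined here were Hmgcs1, Sqle, Insig1, Srebf2, Idi1, Fdps and Lss, 7 genes of the 54532 in the deposited mouse count table, chosen by their gene symbols as sterol genes under the control of the transcription factor SREBP2. Of them, 5 encode enzymes of the pathway and 2, Srebf2 and Insig1, encode regulators. RNA-seq was carried out on the hippocampus of 16 mice, 4 in each of 4 groups, made up of WT mice and hTau.P301S mice, each genotype with and without NR. The hTau.P301S mice carry human Tau with the P301S mutation as a transgene driven by the Thy1 promoter, which is active mainly in neurons, and the WT mice do not carry it. NR is nicotinamide riboside, a precursor of NAD+, given at 6 mM in the drinking water for 3 months from 12 months of age, so that mice were 15 months old at the end. The groups without NR drank plain vehicle water over the same time. These ages follow the sample labels; the text of the study gives slightly younger ages and, in 1 place, a shorter treatment. How the WT mice were related to the transgenic line is not given in the sources used here. Samples are numbered 1 to 4 in each group, each is taken as 1 mouse, and the p-values measure the spread between these samples.

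Cholesterol is made from acetyl-CoA through mevalonate, isoprenoid diphosphates, squalene and lanosterol. SREBP2, the product of Srebf2, is held in the endoplasmic reticulum with SCAP and INSIG while sterols are plentiful, and is released and cleaved when they run short, after which it switches on the synthesis enzymes, Insig1 and its own gene. The brain makes nearly all of its own cholesterol, in the adult largely in astrocytes and in the oligodendrocytes that build myelin, because plasma lipoproteins hardly cross the blood-brain barrier.

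The stretches upstream of the genes are shown because a shared SREBP2 response is known to run through their promoters. RefSeq windows on GRCm38, the build named mm10 in the submitters' notes, matched 5 of the 7 genes. No window was matched for Sqle and Fdps. The motifs searched on both strands, in the 250 bases before the start, were TCACNCCAC (a core sterol regulatory element), CCAAT (the box bound by NF-Y), GGGCGG (bound by Sp1) and CACGTG (an E-box). In the sequences below, capitals mark CCAAT or its reverse complement ATTGG and, in Hmgcs1, the sterol element; bases inside an annotated transcript were left out. All lie on the plus strand, 5′ to 3′, at chr13:119690101-119690350 for Hmgcs1, chr5:28071162-28071362 for Insig1, chr15:82147019-82147180 for Srebf2 and chr10:76531355-76531587 for Lss.
Hmgcs1: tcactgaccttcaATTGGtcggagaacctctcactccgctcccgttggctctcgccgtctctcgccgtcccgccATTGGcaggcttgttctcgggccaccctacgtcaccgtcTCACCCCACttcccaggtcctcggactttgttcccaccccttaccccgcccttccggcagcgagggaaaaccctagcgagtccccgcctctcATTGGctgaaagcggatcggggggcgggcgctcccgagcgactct
Insig1: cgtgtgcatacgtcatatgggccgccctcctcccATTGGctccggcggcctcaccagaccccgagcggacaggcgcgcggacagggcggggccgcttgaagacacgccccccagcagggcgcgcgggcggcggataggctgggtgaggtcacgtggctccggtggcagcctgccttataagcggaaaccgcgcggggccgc
Srebf2: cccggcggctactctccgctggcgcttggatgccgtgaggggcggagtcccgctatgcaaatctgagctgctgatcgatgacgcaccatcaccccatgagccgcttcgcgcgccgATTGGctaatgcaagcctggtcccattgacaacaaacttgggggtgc
Lss: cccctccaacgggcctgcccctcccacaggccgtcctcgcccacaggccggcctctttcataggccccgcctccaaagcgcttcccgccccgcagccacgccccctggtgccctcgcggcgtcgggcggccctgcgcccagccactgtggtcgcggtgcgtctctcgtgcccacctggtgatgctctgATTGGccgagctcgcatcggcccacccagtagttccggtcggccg

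TCACNCCAC was found in 1 of the 5 windows, that of Hmgcs1, against 1.05% of all 32851 windows. CCAAT was found in all 5 windows, with 3 matches in Hmgcs1, 2 in Idi1 and 1 in each of Insig1, Srebf2 and Lss, against 33.8% of all windows. GGGCGG was in all 5 as well, against 32.7% of all windows. CACGTG was in 1, that of Insig1, against 6.02% of all windows. Among the 14 other sterol synthesis genes with a window, 13 held CCAAT, 12 held GGGCGG, 3 held CACGTG and 0 held TCACNCCAC. Among the 5 other SREBP control and target genes with a window, 2 held CCAAT, 4 held GGGCGG, 1 held CACGTG and 0 held TCACNCCAC. These are matches of letters and not measured binding.

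Depth was similar across the libraries, from 16490261 to 21915362 counts per mouse. One library stood apart from the rest. The mouse hTau.P301S 1 had 14.4% of its counts in mitochondrially encoded genes, against 4.48% to 7.07% in the other 15 mice, and 19467 genes detected, against at least 22199. The deposited gene length, averaged over its counts, was 3568 bases, against 5354 to 6471 bases in the other 15 mice. Its counts thus lay more in short genes, and the part of this in its levels was not tested. Its summed microglia markers (6 of 6 detected) reached 1649 CPM (counts scaled to library size, with TMM factors), against 241 to 494 CPM in the other mice. C1qa alone gave 1226 CPM of that sum, so that it does not show a rise of all 6 markers. The 6 neuron markers of this mouse summed to 3628 CPM, the lowest of the 16. Results that rest on this mouse are given with and without it. All 6 hippocampal markers were detected in every mouse, with sums between 382 and 997 CPM. Sums of the 6 striatal markers were 65.3 to 509 CPM in 15 mice and 1464 CPM in WT 2, and the 5 choroid plexus markers summed to 18.9 to 9801 CPM. One of the latter, Kcne2, was at 0 in at least 1 mouse of hTau.P301S and of hTau.P301S + NR, and in no mouse of the WT groups.

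Levels compared per kilobase of the deposited gene length differed between the genes, with overlaps between neighbours. Srebf2, at a median of 35.2 CPM per kb, and Hmgcs1, at 33.2 CPM per kb, were highest, and their ranges overlapped (20.1 to 40.2 and 17.8 to 47.1 CPM per kb). Insig1 followed at 21.1 CPM per kb, and its range of 15.9 to 28.9 CPM per kb overlapped both. Below it, with no overlap, stood Sqle at 9.42 CPM per kb (8.33 to 13.4 CPM per kb). Next were Idi1 at 5.15 CPM per kb, whose highest mouse at 9.01 reached into the range of Sqle, and Lss at 3.03 CPM per kb, whose range overlapped that of Idi1. Fdps was lowest, at 0.128 CPM per kb, with no mouse near the next gene. Its rank is uncertain, since it had few counts and has closely matching copies, as given below for this gene. The deposited lengths equal the summed exon bases of all transcripts in GENCODE M21, so that a gene with a long summed length, such as Lss with 10787 bases, is given a low level per kb.

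**Figure D1:**
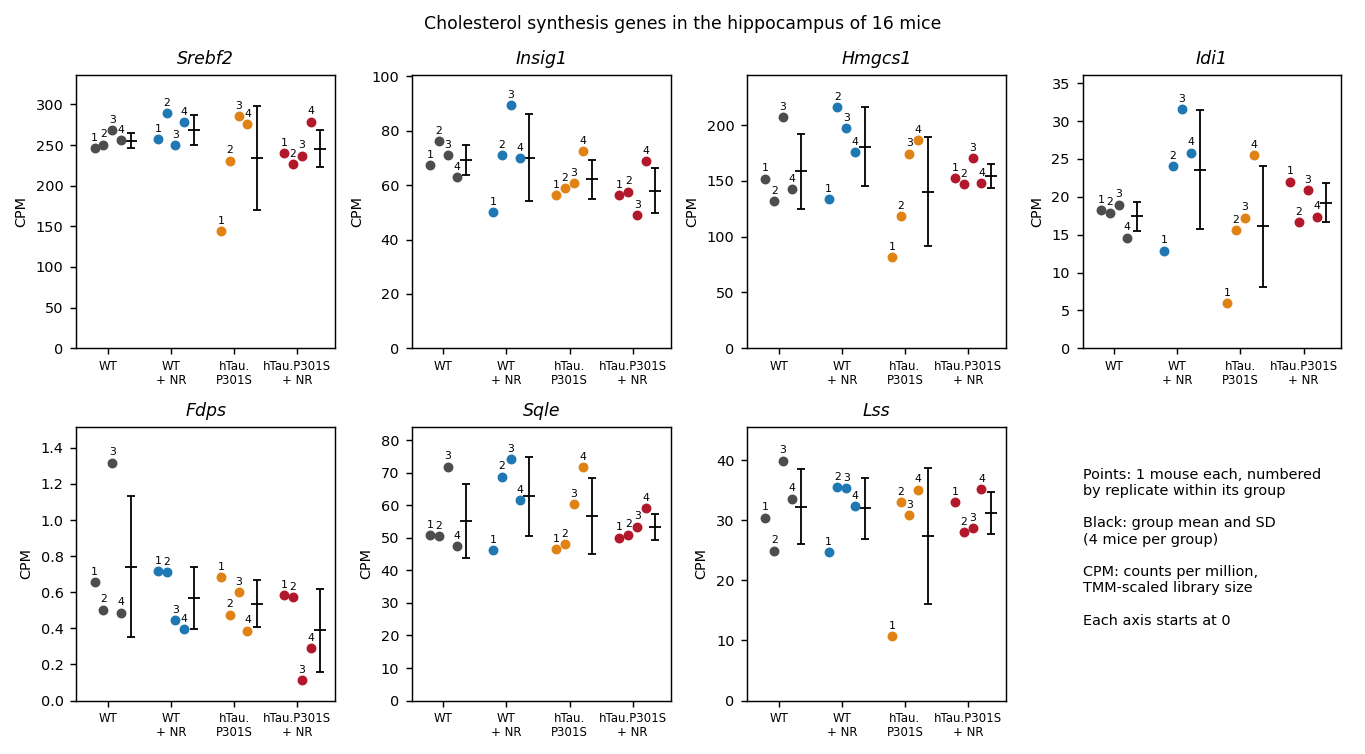
CPM of each gene (vertical axes, starting at 0) in each of the 16 mice, by group; points are mice numbered by replicate and black bars are the group mean and SD. The 4 groups overlap for every gene, and the mouse hTau.P301S 1 is lowest for Srebf2, Hmgcs1, Idi1 and Lss.

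Srebf2 (chr15:82147181-82205379, plus strand), which encodes SREBP2 itself, was the steadiest of the genes once hTau.P301S 1 was set aside. It stood at 247, 251, 269 and 256 CPM in WT 1 to 4 and at 257, 289, 250 and 279 CPM in WT + NR 1 to 4. In hTau.P301S 1 to 4 the values were 145, 231, 286 and 276 CPM, and in hTau.P301S + NR 1 to 4 they were 240, 227, 237 and 279 CPM. Apart from hTau.P301S 1, the mice differed by no more than 1.27-fold. The group means ran from 234 ± 64.3 CPM in hTau.P301S through 246 ± 22.7 in hTau.P301S + NR and 255 ± 9.53 in WT to 269 ± 18.4 in WT + NR (SD, n = 4 each), and neighbours in that order did not differ beyond their spread.

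Insig1 (chr5:28071363-28078662, plus strand) encodes an endoplasmic reticulum protein that retains SCAP and SREBP, and is itself a target of SREBP2. Its levels were 67.4, 76.1, 71.0 and 62.9 CPM in WT 1 to 4 and 50.1, 71.0, 89.5 and 70.03 CPM in WT + NR 1 to 4. They were 56.3, 59.1, 60.7 and 72.6 CPM in hTau.P301S 1 to 4 and 56.4, 57.7, 49.1 and 69.0 CPM in hTau.P301S + NR 1 to 4. Both hTau.P301S groups sat at the lower end, with means of 62.2 ± 7.18 and, with NR, 58.0 ± 8.23 CPM, against 69.3 ± 5.59 CPM in WT and 70.2 ± 16.1 CPM in WT + NR (SD, n = 4 each), and all 4 ranges overlapped.

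Hmgcs1 (chr13:119690379-119708260, plus strand) encodes the cytosolic HMG-CoA synthase, an early enzyme of the mevalonate pathway. WT 1 to 4 gave 152, 132, 207 and 143 CPM and WT + NR 1 to 4 gave 133, 216, 198 and 176 CPM. The values were 81.8, 118, 175 and 186 CPM in hTau.P301S 1 to 4 and 153, 147, 170 and 148 CPM in hTau.P301S + NR 1 to 4. High and low mice occurred in 3 of the 4 groups, while hTau.P301S + NR was narrow, at 155 ± 10.8 CPM (SD, n = 4). Antisense gene Gm48342 covers 12.1% of its exon bases, and whether counting used strand is not given in the sources used here; Gm48342 had at most 9 counts in a mouse.

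Idi1 (chr13:8885501-8892451, plus strand) encodes isopentenyl diphosphate isomerase, which interconverts the pair of isoprenoid building blocks. Its levels were 18.2, 17.9, 19.0 and 14.6 CPM in WT 1 to 4 and 12.9, 24.1, 31.6 and 25.8 CPM in WT + NR 1 to 4. They were 5.98, 15.6, 17.3 and 25.5 CPM in hTau.P301S 1 to 4 and 22.005, 16.6, 20.9 and 17.4 CPM in hTau.P301S + NR 1 to 4. In WT + NR, 3 of 4 mice lay above every WT mouse and the other lay below all of them. A processed pseudogene, Gm13502, matches 684 bases of Idi1 at 100% identity and had 1 to 12 counts, against 70 to 640 for Idi1.

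Fdps (chr3:89093588-89101959, minus strand) encodes farnesyl diphosphate synthase, the branch point towards sterols and protein prenylation. Its counts were 12, 9, 25 and 9 in WT 1 to 4 and 14, 13, 9 and 7 in WT + NR 1 to 4. They were 8, 9, 11 and 7 in hTau.P301S 1 to 4 and 13, 11, 2 and 6 in hTau.P301S + NR 1 to 4. A median of 9 counts gives no useful precision, and this gene is reported as uncertain. Its exons share 26.7% of their bases with an overlapping gene, Gm43738, listed at 0 counts in all 16 mice, and 6 processed pseudogenes match its transcripts at 90% identity or more. The pseudogene Gm3571 on chromosome 10, which matches 1062 bases at 98.9% identity, had 26 to 172 counts, with a median of 65.5 against 9 for Fdps. RSEM, which the methods name, divides reads that match several genes by an estimate and gives counts that need not be whole, while the deposited counts are whole numbers. How the whole numbers were reached is not given in the sources used here. The part of such copies in the low count was not tested.

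Sqle (chr15:59315077-59331192, plus strand) encodes squalene epoxidase, which oxidises squalene ahead of ring closure. WT 1 to 4 gave 50.9, 50.5, 71.9 and 47.4 CPM and WT + NR 1 to 4 gave 46.2, 68.8, 74.3 and 61.7 CPM. The values were 46.6, 48.1, 60.4 and 71.8 CPM in hTau.P301S 1 to 4 and 50.1, 51.0, 53.4 and 59.0 CPM in hTau.P301S + NR 1 to 4. The 4 highest mice, WT + NR 3, WT 3, hTau.P301S 4 and WT + NR 2, were also the 4 highest for Hmgcs1.

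Lss (chr10:76531588-76557138, plus strand) encodes lanosterol synthase, which closes the sterol rings. Its levels were 30.4, 24.9, 39.9 and 33.6 CPM in WT 1 to 4 and 24.7, 35.5, 35.3 and 32.4 CPM in WT + NR 1 to 4. They were 10.7, 33.0, 30.8 and 35.1 CPM in hTau.P301S 1 to 4 and 33.0, 28.0, 28.7 and 35.2 CPM in hTau.P301S + NR 1 to 4. All mice but hTau.P301S 1 lay between 24.7 and 39.9 CPM.

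The first question was whether the genes differed between hTau.P301S and WT mice, neither on NR. Of the 7, 6 had enough counts to be tested and 0 were called by edgeR's quasi-likelihood test, where a call needs a Benjamini-Hochberg adjusted p under 0.05 and a log2 fold change beyond 0.5 either way. Over all genes, 1 of 16375 was called (0.00611%), and at an unadjusted p under 0.05 3.41% of genes were higher and 3.73% lower; no cholesterol gene reached that. Lss had the lowest estimate, a log2 fold change of -0.23 ± 0.35 (SE) with a 95% interval of -1.02 to 0.55, and Sqle the highest, 0.042 ± 0.21 with an interval of -0.44 to 0.53. Insig1 had the smallest p, with adjusted p = 0.709 by edgeR, at -0.16 ± 0.16. The median over the 6 was -0.14, against 0.023 over all genes tested. Below 0 were 5 of 6 estimates, while 52.3% of all genes tested were above 0. Without hTau.P301S 1 the median was 0.025 over 7 genes, 5 of the 7 estimates were above 0, and Lss was at 0.025. Without hTau.P301S 4, in turn, the median was -0.36. In hippocampus as a whole, fewer cells of a type and less RNA per cell cannot be told apart in such values. The levels of the 2 groups overlapped for all 7 genes, and over all genes kept, 6.31% did not overlap.

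Whether NR changed the genes in hTau.P301S mice was asked next, with the same hTau.P301S mice as in the first comparison. Again 6 were tested and 0 were called, against 1 of 16386 genes (0.0061%). At an unadjusted p under 0.05, 5.86% of all genes were higher and 7.01% lower with NR, and 0 of the 6 were among them. Idi1 had the highest estimate, 0.25 ± 0.37 (interval -0.58 to 1.09), and Insig1 the lowest, -0.10 ± 0.16 (interval -0.47 to 0.26). Idi1 also had the smallest p, with adjusted p = 0.715 by edgeR. The median of the genes was 0.10 and that of all genes tested -0.031. Here too the sign rested on hTau.P301S 1, since without it the median was -0.093 and all 7 estimates lay below 0, with none at an unadjusted p under 0.05. No gene had groups without overlap, against 11.8% of all genes.

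In WT mice, NR was compared with the same WT mice as above. All 7 genes were tested and 0 were called, as for all 16714 genes (0%); unadjusted p under 0.05 was met by 0.371% of genes in the higher direction and 0.419% in the lower. Idi1 came nearest, at 0.44 ± 0.25 with an interval of -0.11 to 0.999 (adjusted p = 0.9999 by edgeR), from a mean of 17.4 ± 1.93 CPM to 23.6 ± 7.83 CPM (SD, n = 4 each). Hmgcs1 and Sqle gave 0.19 ± 0.19 and 0.19 ± 0.18, and Lss -0.0050 ± 0.17 (interval -0.40 to 0.39). The median over the 7 was 0.079, against 0.0043 over all genes. DESeq2, run on the same mice, called 0 of the 7 and 3 genes in all. Leaving out WT + NR 1, the low mouse, raised the Idi1 estimate to 0.63 (adjusted p = 0.9997 by edgeR). Its unadjusted p was then under 0.05 and the groups did not overlap. At that level 0.24% of all genes were higher, and 2.28% did not overlap. Without WT + NR 3, in turn, Idi1 was at 0.27. WT + NR 1 was singled out after its low Idi1 value was seen. The larger estimate and lost overlap follow from that choice and are no evidence of a change. With all mice kept, none of the 7 had groups without overlap, against 0.826% of all genes.

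Between the groups on NR, hTau.P301S + NR relative to WT + NR, all 7 estimates were below 0. None was called, against 9 of 16671 genes (0.054%), and none had an unadjusted p under 0.05, which 2.42% of genes met in the higher and 3.67% in the lower direction. Sqle gave -0.23 ± 0.15 (adjusted p = 0.782), Hmgcs1 -0.23 ± 0.15 (adjusted p = 0.783) and Insig1 -0.27 ± 0.18 (adjusted p = 0.784), all by edgeR. For Srebf2 the estimate was -0.13 ± 0.10 and for Lss -0.035 ± 0.14. The median was -0.23, against -0.016 over all genes tested. Of the 17 other sterol synthesis genes, 15 were also below 0, with a median of -0.17. Over all genes tested, 47.0% of estimates were above 0. The 7 genes, Fdps aside, correlated over the mice (given below), so that their signs are not independent of each other. Groups overlapped for all 7 genes, against 3.77% of all genes without overlap. How far apart the groups were depended on single mice. Without WT + NR 1 the median was -0.34 and 4 of the 7 no longer overlapped. Hmgcs1, Sqle, Insig1 and Idi1 were then lower at an unadjusted p under 0.05. Without WT + NR 3, in turn, the median was -0.14 and Lss was at 0.021. WT + NR 1 was the lowest of its group for Hmgcs1, Sqle, Insig1 and Idi1, and was singled out after this was seen. A wider gap and smaller p follow from that choice and are no evidence of a difference. Without WT + NR 1, 6.16% of all genes kept did not overlap, and 3.33% of genes tested were lower and 2.61% higher at that level. Idi1 was then at -0.49 (adjusted p = 0.818 by edgeR), and none of the 7 was called.

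A test of whether the response to NR differed between the genotypes, over all 16 mice, called 0 of the 7 and 0 of 17555 genes (0%). At an unadjusted p under 0.05, 3.29% of genes were above and 4.63% below 0, and again 0 of the 7 were among them. Sqle had the smallest p, with adjusted p = 0.698 by edgeR, at -0.27 ± 0.26 with an interval of -0.83 to 0.28. These 5 comparisons share groups and are not independent of each other. A 2-sided exact permutation test of mean log2 CPM, 4 mice against 4, cannot go below p = 0.0286 and gave 0.171 as its lowest value over the 7 genes and 4 pairs of groups. DESeq2 called 0 of the 7 in each comparison. The widest 95% interval reached 1.43 either side of its estimate (Fdps, interaction), and Idi1 reached 0.84 either side in hTau.P301S against WT, so that changes of that size were not detectable there. For Srebf2 in WT + NR against WT the interval of -0.15 to 0.31 leaves out a log2 change of 0.5 either way.

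**Figure D2:**
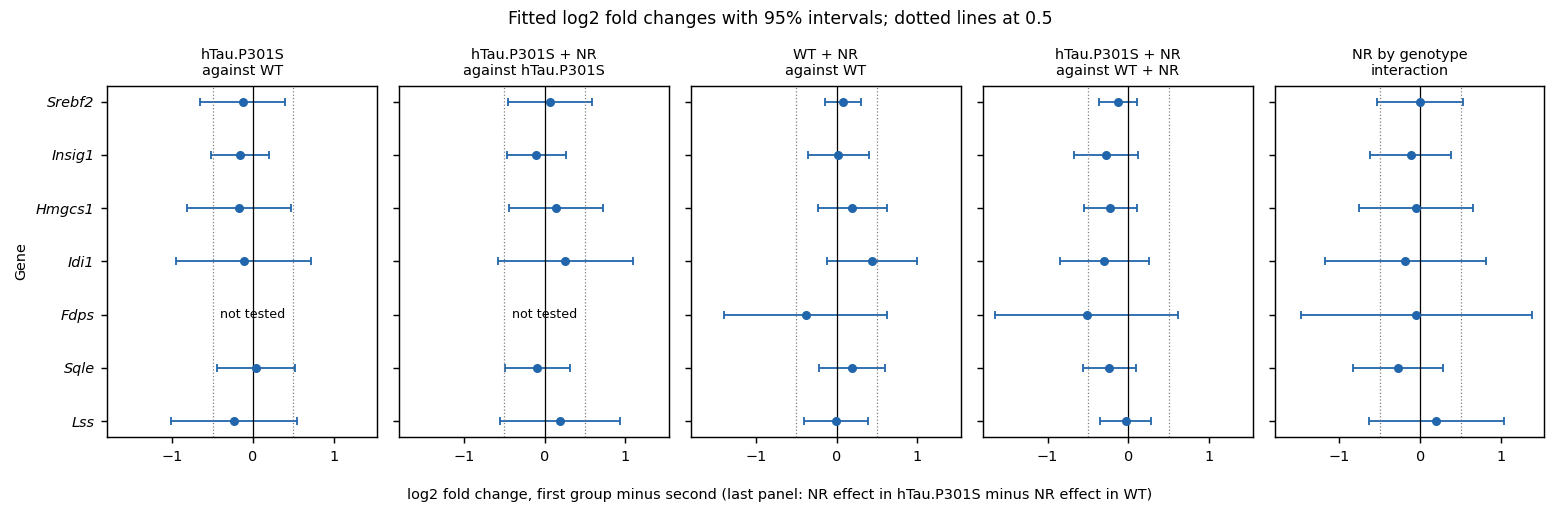
Fitted log2 fold changes of the 7 genes (points) with 95% intervals (bars) in the 4 pairwise comparisons and the interaction; dotted lines mark 0.5 either way. Every interval holds 0, and Fdps was not tested in the pairs that hold hTau.P301S without NR.

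Apart from Fdps, the genes tended to rise and fall together from mouse to mouse, which is given as a description without a test. Scaled to its own mean and SD over the 16 mice, each gene gives a z-score, and the mean over the 7 ran from -1.94 in hTau.P301S 1 to 0.998 in WT 3. WT + NR 3, WT + NR 2 and hTau.P301S 4 followed from the top, at 0.939, 0.888 and 0.650. At the low end were hTau.P301S + NR 3 at -0.600 and WT + NR 1 at -0.557. The order within both ends depended on Fdps and its few counts. Over the other 6 genes WT + NR 3 was highest at 1.15, before WT + NR 2 at 0.921, hTau.P301S 4 at 0.853 and WT 3 at 0.817. Next to hTau.P301S 1, at -2.37, the lowest were then WT + NR 1 at -0.770 and hTau.P301S 2 at -0.506, while hTau.P301S + NR 3 was at -0.265. With or without Fdps the same 4 mice were highest, so that high mice came from 3 groups, and WT + NR held mice of both kinds.

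**Figure D3:**
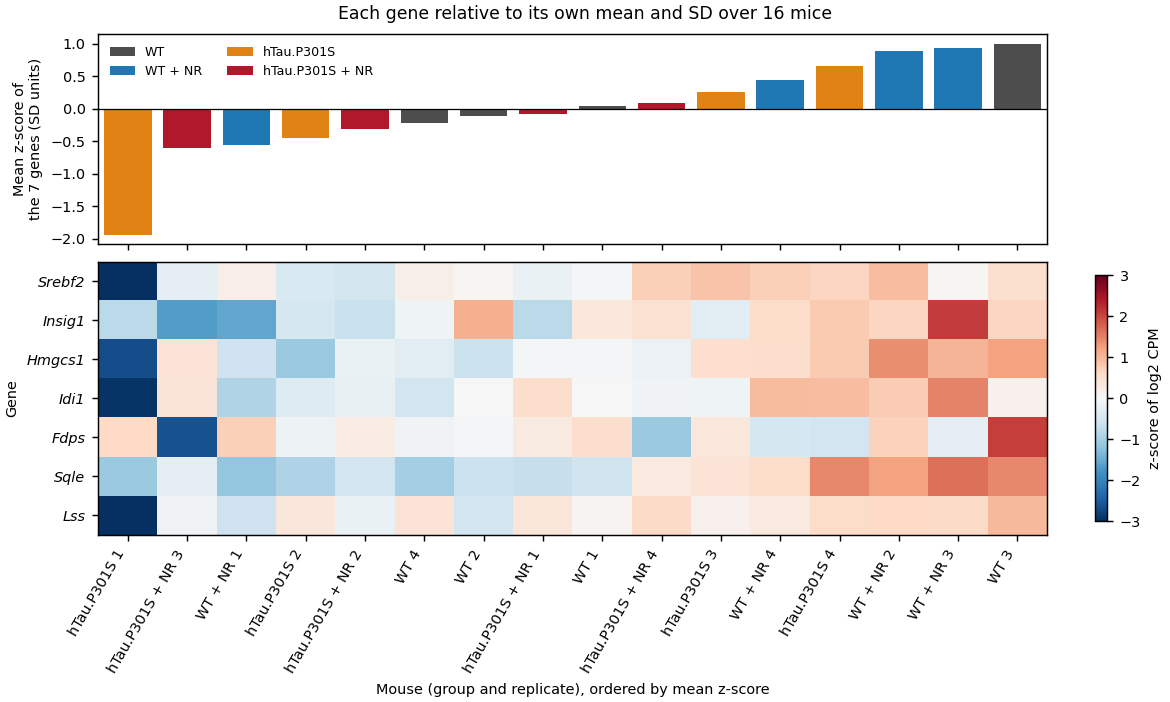
Mean z-score of the 7 genes in each mouse (top, bars coloured by group) and the z-score of each gene (bottom, red above and blue below its mean over 16 mice), mice ordered by the mean. WT 3, WT + NR 2 and 3 and hTau.P301S 4 lie at the high end, and Fdps does not follow the other rows.

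Correlations of log2 CPM over the 16 mice, which share library depth and composition and are given as descriptions, were between 0.370 and 0.878 for the 15 pairs without Fdps, with a median of 0.696. Srebf2 with Lss was highest and Srebf2 with Insig1 lowest. Without hTau.P301S 1 (15 mice) the range was 0.247 to 0.893 and the median 0.601, and Hmgcs1 with Sqle was highest. With group means also removed, the median was 0.533. No such median was taken over pairs of other genes. Fdps had correlations of -0.254 to 0.161 with the other 6.

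Among 17548 other genes, those most like the mean z-score over the 16 mice included Zc2hc1a (r = 0.903), Stard4 (0.886), a cytosolic cholesterol carrier, and Cyp51 (0.866), the lanosterol demethylase. Mcph1, Tox4, Thsd7b, Pcsk1 and Pard6b followed at 0.833 to 0.828. Over 15 mice, without hTau.P301S 1, the 10 highest included Zc2hc1a (0.825), Stard4, Gpr3, Msmo1, Cyp51, Decr2, Mvd and Fdft1 (0.724), of which Stard4, Msmo1, Cyp51, Mvd and Fdft1 belong to the sterol synthesis and SREBP target lists. After group means were removed over 16 mice the 10 highest were Pnma2 (0.928), Rnf11, Mcph1, Gria4, Nalcn, Grin3a, Cyp51, 2610002M06Rik, Prag1 and Rnf14 (0.905), of which 1 belongs to the lists. Without hTau.P301S 1, and again with group means removed, 2 of the 10 highest belonged to the lists, Cyp51 among them at 0.885. Few of the 10 thus came from the lists with or without that mouse.

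Of the 26 other sterol synthesis, SREBP control and target genes, 15 (57.7%) lay above the 95th percentile of all genes (r = 0.396) over the 15 mice. Over all 16 mice 8 (30.8%) lay above that percentile, which was then 0.675. Srebf1, the gene of the lipogenic SREBP1, went the other way, with r = -0.591 over 16 and -0.520 over 15 mice. Scap, the escort of both SREBPs, had r = -0.654 over 16 and -0.112 over 15 mice.

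**Figure D4:**
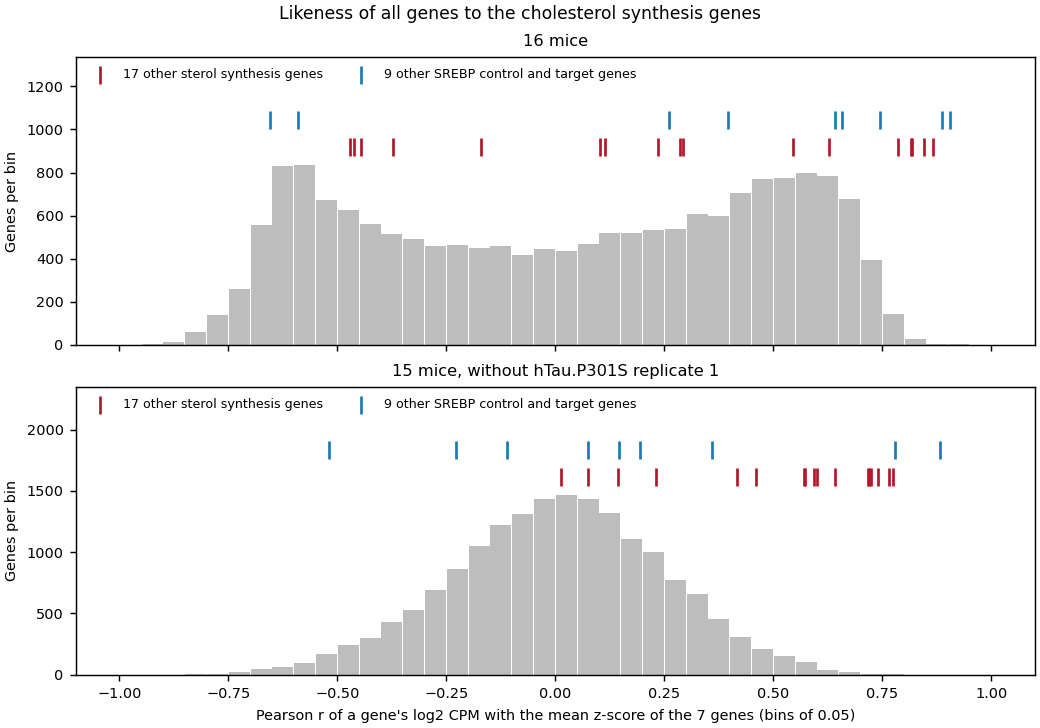
Number of genes per bin of Pearson r with the mean z-score of the 7 genes (grey bars), for 16 mice (top) and without hTau.P301S 1 (bottom); red ticks are the 17 other sterol synthesis genes and blue ticks the 9 other SREBP control and target genes. Without that mouse the histogram centres near 0 (median r = 0.010) and most red ticks lie to its right.

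Cell type markers moved with the score in part. The summed microglia markers had r = -0.628 with the mean z-score over 15 mice and -0.783 over 16, the astrocyte markers -0.472 and 0.0039, and the oligodendrocyte markers -0.260 and -0.445. In hTau.P301S 1, counted only in the 16, C1qa alone gave 1226 CPM of the microglia sum of 1649 CPM. The neuron markers had r = 0.032 over 15 mice and 0.352 over 16, and the hippocampal markers -0.286 and -0.551. The share of mitochondrial counts had r = 0.0051 over 15 mice and -0.662 over 16. With Fdps left out of the score, the microglia markers had r = -0.623 over 15 mice and the oligodendrocyte markers -0.194. WT 3, among the 4 highest mice, had the lowest sums of both oligodendrocyte markers, 2751 CPM, and microglia markers, 241 CPM. The part of cell composition in the spread of the genes was not tested.

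The rest of the pathway was described by lists of genes. Among the 17 other sterol synthesis genes, 0 were called in any comparison. In hTau.P301S + NR against hTau.P301S, 3 of the 17 had an unadjusted p under 0.05, all lower with NR, where 7.01% of all genes were lower and 5.86% higher, and the list median was -0.22. One of them, Ebp, a sterol isomerase, averaged 11.3 ± 1.91 CPM with NR and 19.3 ± 9.55 CPM without (SD, n = 4), a log2 fold change of -0.78 ± 0.33 (adjusted p = 0.367 by edgeR). That mean rested on hTau.P301S 1 at 33.6 CPM, and without this mouse the value was -0.35 (adjusted p = 0.298). Mvd, mevalonate diphosphate decarboxylase, went from 19.5 ± 5.84 CPM to 12.2 ± 2.66 CPM, -0.68 ± 0.27 (adjusted p = 0.367), and was at -0.47 (adjusted p = 0.284) without that mouse, when neither gene had an unadjusted p under 0.05. The third was Fdft1, squalene synthase, named here after its values were seen, at -0.70 ± 0.28 (adjusted p = 0.367 by edgeR) and at -0.41 (adjusted p = 0.268) without that mouse. Without it 3 of the 17 again had an unadjusted p under 0.05, and they were Fdft1, Lbr and Hsd17b7, all lower with NR, where 7.4% of all 16734 genes tested were lower and 10.6% higher at that level.

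Between the groups on NR, 4 of the 17 had an unadjusted p under 0.05, all lower in hTau.P301S + NR, against 3.67% of all genes lower and 2.42% higher. They were Lbr, a sterol reductase of the nuclear envelope, at -0.35 ± 0.13, Ebp at -0.41 ± 0.15, Tm7sf2, another sterol reductase, at -0.44 ± 0.17, and Mvd at -0.46 ± 0.20, each with adjusted p = 0.781 by edgeR. In the 2 comparisons against WT without NR, 0 of the 17 reached that level, with medians of 0.19 for hTau.P301S and 0.061 for WT + NR.

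Of the 9 other SREBP control and target genes, 0 were called and 0 had an unadjusted p under 0.05 in any comparison. Insig2, a paralogue of Insig1, was at -0.17 ± 0.10 between the groups on NR (adjusted p = 0.781 by edgeR). Srebf1 ranged from 99.9 ± 23.96 CPM in WT to 118 ± 20.96 CPM in hTau.P301S + NR (SD, n = 4 each).

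Lists for efflux and turnover (13 genes) and for the lipogenic targets of SREBP1 (8 genes) had 0 calls. Soat1, which esterifies cholesterol, averaged 43.0 ± 4.10 CPM in hTau.P301S + NR and 29.9 ± 5.62 CPM in hTau.P301S, at 0.52 ± 0.18 (adjusted p = 0.367 by edgeR), and was at 0.44 (adjusted p = 0.148) without hTau.P301S 1. Elovl6, a fatty acid elongase, was at 0.63 ± 0.15 in the same comparison (adjusted p = 0.345), with 59.8 to 77.6 CPM in the 4 mice on NR and 40.5 to 49.9 CPM in the 4 without, and at 0.59 (adjusted p = 0.0646) without hTau.P301S 1. Acss2, which makes acetyl-CoA from acetate, was at -0.60 ± 0.11 in hTau.P301S + NR against WT + NR (adjusted p = 0.210), with 28.5, 27.5, 30.6 and 27.3 CPM against 36.5, 47.4, 41.95 and 46.4 CPM. The groups did not overlap for Elovl6, Acss2 or Soat1 in these comparisons, and these genes were named for their small p. Over all genes kept, 11.8% did not overlap in hTau.P301S + NR against hTau.P301S and 3.77% between the groups on NR. Ch25h, the cholesterol 25-hydroxylase, was at 1.31 ± 0.52 in WT + NR against WT (adjusted p = 0.9999), from means of 1.02 and 0.409 CPM. Abca1, the cholesterol exporter, was at 0.35 ± 0.15 between the groups on NR (adjusted p = 0.781).

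**Figure D5:**
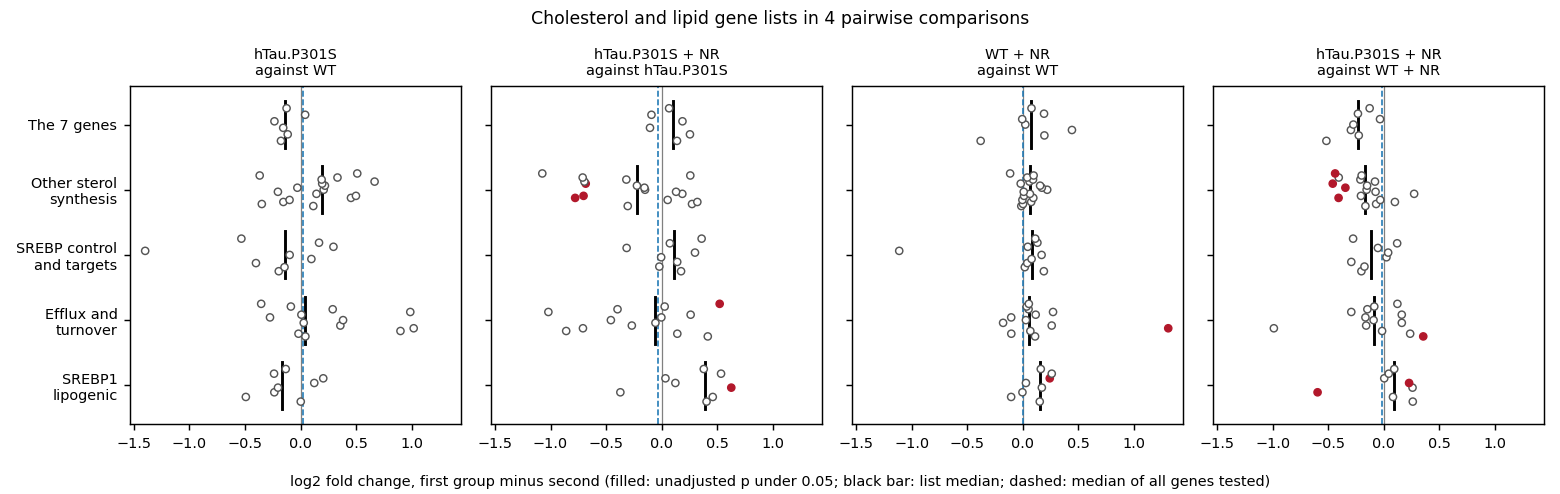
Log2 fold changes of the 7 genes and of 4 lists of related genes in the 4 pairwise comparisons; each circle is a gene, filled where the unadjusted p was under 0.05, black bars are list medians and the dashed line the median of all genes tested. Most circles lie within 0.5 of 0, and the 7 genes are all left of 0 between the groups on NR.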

How the data were processed

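The authors trimmed reads (Trim Galore, FastQC in the submitters' notes), aligned them to mm10 with STAR and quantified genes with RSEM. The deposited values are raw counts, whole numbers without normalization, with a gene length (another deposited value, in bases). Columns were matched to the labelled samples by name. Counts were tested with edgeR 4.0.16 (filterByExpr, TMM, quasi-likelihood) in R 4.3.3 on the 8 mice of each pair, and over 16 mice for the interaction, with DESeq2 1.42.0 as an alternative; the steps were tested on simulated data. The SE of a log2 fold change was taken from the estimate and its F statistic. CPM used TMM-scaled library sizes over the 17555 genes kept, and log2 CPM a prior count of 2. Copies were sought with BLAST 2.17.0 against GENCODE M21 transcripts (at least 90% identity over 200 bases). The members and lists were chosen with earlier results of these data known. Genes named were the 7, up to 4 of each list with the smallest p in any comparison, Srebf1 and Insig2, and the 10 most like the members' mean z-score, and some of these are not reported here. No 2 libraries of a group were alike within sampling noise (chi-square per degree of freedom 11.4 or more in 24 pairs). Totals were 16490261 to 21915362 counts per mouse. No interval of a single library is given. Leaving out hTau.P301S 1 for lists and correlations, Fdps from the score, and WT + NR 1 for shares of all genes was chosen after seeing the data.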

Additional observations from a re-analysis of the deposited data

Results flagged for a closer look

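Among the 28 combinations of gene and group tested for a sample far from the others, where chance gives about 1 in 20, 1 stood out. It was Lss in hTau.P301S, where replicate 1 had 10.7 CPM (3.43 on the log2 scale) against 30.8 to 35.1 CPM in the other 3 mice, a gap of 0.89 of the whole range. The same mouse had 14.4% mitochondrial counts, 19467 genes detected and a mean gene length over its counts of 3568 bases. The deposited length of Lss is 10787 bases. The part of these in the low Lss value was not tested.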

How the results depend on the processing

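No member was called under any alternative, and the members' median log2 fold change moved by less than the spread between mice (SD 0.258) in all. DESeq2 called 116 genes over all genes in hTau.P301S against WT, 243 in hTau.P301S + NR against hTau.P301S, 3 in WT + NR against WT, 56 between the groups on NR and 17 in the interaction. Without a filter 5 were called in the first and 15 between the groups on NR; with 10 counts in every mouse 0 in the second; with all 4 groups in 1 fit 36 in the first and 2 in the second. The replicate numbers gave no sign that the mice were paired, though 4 mice per group cannot exclude it. Correlations of same-numbered deviations ran from -0.537 to 0.287, and 3, 0, 0 and 2 of 8 mice in the 4 pairs of groups correlated best with their own number. With the replicate block 3, 0, 0 and 4 genes were called in the pairs, and in that fit Insig1 (-0.0025) and Lss (0.00043) in WT + NR against WT and Hmgcs1 (8.04e-05) and Srebf2 (0.019) in the interaction changed sign. Srebf2 in the interaction was also above 0 with DESeq2 (0.0087), its size factors (0.0052), no filter (0.0075) and 10 counts in every mouse (0.021). Leaving out 1 mouse at a time, hTau.P301S against WT gave 1 to 14 genes called (14 without hTau.P301S 1, 2 without WT 3), 0 to 1 members without overlap (1 without hTau.P301S 4), and ranges of -0.36 to 0.0045 for Hmgcs1, -0.44 to 0.15 for Idi1, -0.39 to 0.025 for Lss, -0.11 to 0.18 for Sqle and -0.23 to 0.041 for Srebf2. In hTau.P301S + NR against hTau.P301S the ranges were 0 to 33 genes (33 without hTau.P301S 1, 1 without hTau.P301S + NR 3, 0 without any other mouse), -0.038 to 0.31 for Hmgcs1, -0.0064 to 0.57 for Idi1, -0.066 to 0.33 for Lss, -0.16 to 0.049 for Sqle and -0.093 to 0.18 for Srebf2. In WT + NR against WT they were 0 to 1 members without overlap (1 without WT + NR 1), -0.53 to 0.044 for Fdps, -0.12 to 0.14 for Insig1 and -0.11 to 0.11 for Lss. Between the groups on NR they were 8 to 31 genes (31 without WT + NR 3), 0 to 4 members without overlap (4 without WT + NR 1, 1 without hTau.P301S + NR 4) and -0.13 to 0.021 for Lss. In the interaction they were 0 to 1 genes (1 without hTau.P301S 3), -0.47 to 0.24 for Fdps, -0.23 to 0.12 for Hmgcs1, -0.45 to 0.13 for Idi1, -0.25 to 0.031 for Insig1, -0.061 to 0.34 for Lss and -0.17 to 0.11 for Srebf2. The cause of these changes was not tested. At 2 to 25 counts, Fdps values have little precision.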
